A study of Mus musculus with 4 samples.

Results

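The imprinted growth genes are 10 genes of the 23997 in the expression table, taken by their symbols: *H19*, *Meg3*, *Rian* and *Grb10*, which are known for expression from the maternal allele, and *Dlk1*, *Peg3*, *Plagl1*, *Mest*, *Ndn* and *Nnat*, which are known for expression from the paternal allele. All 10 symbols were found, and 8 of the genes passed the filter on low values, while *Rian* and *Dlk1* did not. Cochleae were taken at postnatal day 3 from mice labelled as strain C57BL/6, and EGFP+ cells were isolated by FACS. The line Lgr5-EGFP-IRES-creERT2 gave the Lgr5+ progenitors, and the line Lgr6-EGFP-IRES-CreERT2 gave the Lgr6+ progenitors. The reporter sits at the *Lgr5* or the *Lgr6* gene, so the populations come from different mouse lines, and the replicates of each population were fractions of the same extracted RNA. There are 2 libraries for each population, 4 in all, but the table gives 1 combined FPKM value (fragments mapped to a gene, scaled by transcript length and by library size) for each gene in each population. The labels and the study's methods differ on how many fractions were made, so what the combined value pools is not certain. The spread between replicates cannot be computed from these values, and the differences below are given with no error and were not tested here.

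An imprinted gene is transcribed mainly from the copy inherited from the mother or mainly from the copy inherited from the father, because DNA methylation set in the germ line marks the parental copies differently. Many imprinted genes lie in clusters that share a control region. Several of them form a co-regulated set that promotes or restrains growth in the fetus and is turned down in many organs as growth slows after birth, with *Plagl1*, a zinc finger transcription factor, among its known regulators. The libraries hold 1 age and no information on alleles, so neither the change with age nor the parental origin of the RNA was measured, and the terms maternally and paternally expressed are background.

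Whole-series values bear on these genes in several ways. A gene was kept when its FPKM was at least 1 in at least 1 population, which left 13436 genes, and its change is the difference in log2(FPKM + 1), Lgr6+ less Lgr5+, so that positive values are higher in the Lgr6+ cells and the added 1 understates the change of low genes. The median change of the kept genes was 0.03, and 28.5% of them were at least 1.5-fold higher and 23.3% lower in the Lgr6+ cells. All 15 supporting cell markers were kept, with 2 at least 1.5-fold higher and 5 at least 1.5-fold lower in the Lgr6+ cells. *Lgr5* itself had an FPKM of 9.65 in the Lgr5+ cells against 25.0 in the Lgr6+ cells, and *Lgr6* had 2.06 and 2.90. The 12 hair cell markers were all above 0 in both populations and summed to an FPKM of 1866 in Lgr5+ and 4316 in the Lgr6+ cells. Markers of cells outside the sensory epithelium also differed. The 14 markers of mesenchyme and fibrocytes summed to 354.4 and 679.3 with none at 0, and 6 of the 13 kept were at least 1.5-fold higher and 1 lower in the Lgr6+ cells. *Otos*, with 5.60 and 248.5, made up most of that difference, while *Lum* had 179.0 and 101.0. The 10 macrophage markers summed to 3.88 and 263.5, and the 8 kept were all at least 1.5-fold higher in the Lgr6+ cells. *C1qb*, *C1qc*, *Tyrobp*, *Csf1r*, *Aif1* and *Ptprc* were listed at 0 in the Lgr5+ cells. *Ptprc* was near 0 in the Lgr6+ cells too, at 0.00814, and *Cx3cr1* had 0.215 and 0.681, so neither was kept. Low values were resolved more finely in the Lgr6+ cells, as described below. The 9 endothelial markers summed to 19.3 and 104.1 with *Kdr* at 0 in the Lgr5+ cells. Of these, 8 were at least 1.5-fold higher in the Lgr6+ cells and *Tie1*, with 2.09 and 0.999, was lower. The 5 Schwann cell markers summed to 12.0 and 129 with *Cdh19* at 0 in Lgr5+ and *Foxd3* at 0 in the Lgr6+ cells. Only 2 of them were kept, both higher in the Lgr6+ cells. The 7 neuronal markers summed to 93.6 and 126.1 with *Prph* at 0 in the Lgr5+ cells. Of the neuronal markers 4 were within 1.5-fold, and the sum rests on *Snap25*, with 7.63 and 53.4. The 5 markers of melanocytes and intermediate cells stayed low, at 1.68 and 3.97, with *Mlana* at 0 in both and *Dct* at 0 in the Lgr5+ cells. The 6 erythroid markers summed to 629.8 and 108.0, with 5 kept, of which the 4 globin genes were at least 1.5-fold lower in the Lgr6+ cells and *Alas2* had 4.36 and 6.64. The part of these cells in the results below was not tested, and in sorted pools a smaller share of expressing cells cannot be told apart from less RNA per cell.

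The 10 genes fell into 3 levels. *Nnat*, *H19*, *Grb10*, *Meg3* and *Ndn*, 5 genes, had an FPKM above 10 in both populations, *Mest*, *Plagl1* and *Peg3*, 3 genes, lay between 1 and 10 in both, and *Dlk1* and *Rian*, 2 genes, lay under 0.1 in both. The order of FPKM in the Lgr5+ cells was *Nnat*, *H19*, *Grb10*, *Meg3*, *Ndn*, *Mest*, *Plagl1*, *Peg3*, *Dlk1*, *Rian*. In Lgr6+ progenitors *Ndn* stood in position 3, ahead of *Grb10* and *Meg3*, and the other 7 genes kept their positions. Without a spread it is not known which neighbours in this order differ. *Nnat* alone made up 71.5% of the summed FPKM of the 10 genes in the Lgr5+ cells against 75.0% in the Lgr6+ cells. The summed FPKM of the other genes was 127.7 and 125.0.

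**Figure D1:**
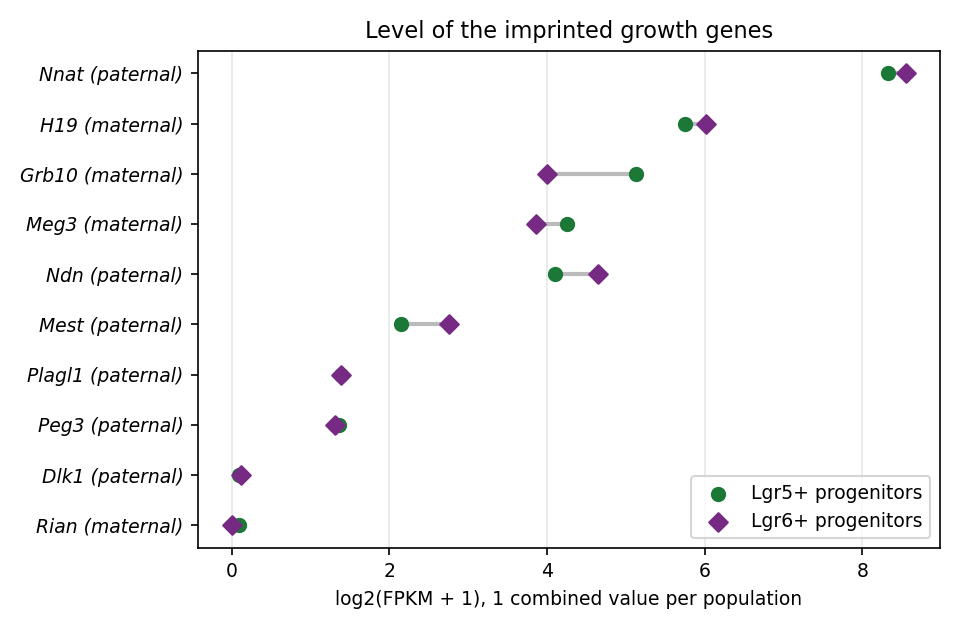
Level of each imprinted growth gene as log2(FPKM + 1) on the x axis, in Lgr5+ (green circles) and Lgr6+ progenitors (purple diamonds), with 1 combined value per population and no error bars because single libraries were not given. *Grb10* shows the widest gap, from an FPKM of 34.0 to 15.0, and *Dlk1* and *Rian* sit near 0.

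Of the 8 kept genes, *Grb10* was at least 1.5-fold lower and *Mest* at least 1.5-fold higher in the Lgr6+ cells, and the other 6 differed by less. Over all kept genes 51.8% were past 1.5-fold in either direction, 28.5% higher and 23.3% lower in the Lgr6+ cells. At 2-fold only *Grb10*, among the 8, was past the line, while over all kept genes 29.9% were, 18.2% higher and 11.7% lower. The median change of the 8 genes was 0.11, with 4 above and 4 below 0. The median size of their change, whatever its sign, was 0.33, against 0.61 over all kept genes. All 8 genes reached an FPKM of 1 in both populations, whereas the kept genes include some that reached it in only 1. Over the 11177 genes that reached it in both, a filter chosen after seeing the data, 43.9% were past 1.5-fold. The median size of change was not computed for that set. The 3 kept maternally expressed genes had a median change of -0.39 and the 5 kept paternally expressed genes had a median of 0.23. In each of these groups 1 gene was past 1.5-fold. Changes also depend on level, since 62.5% of the kept genes with a mean level between 1 and 5 were past 1.5-fold but 35.3% of those above 100 were.

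**Figure D2:**
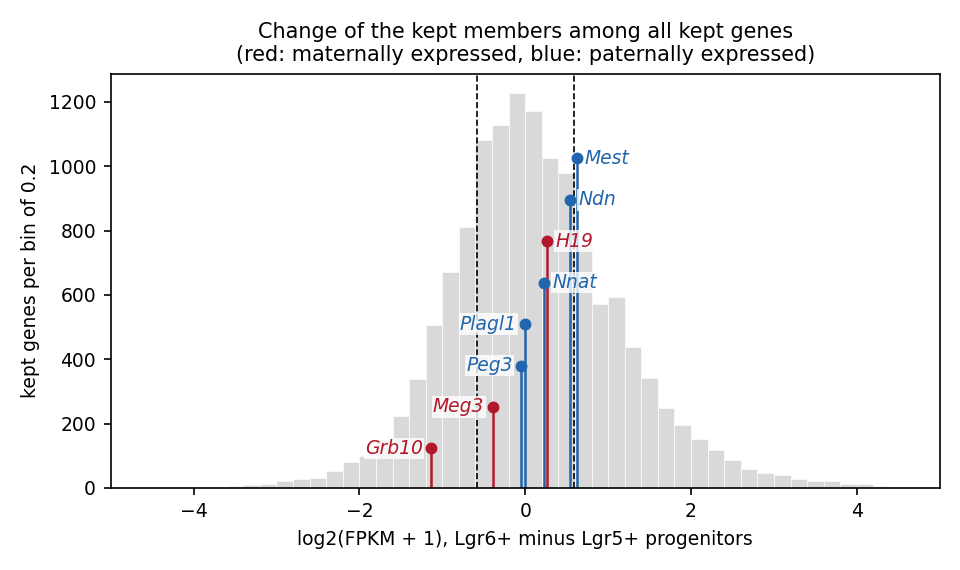
Histogram of the change in log2(FPKM + 1), Lgr6+ minus Lgr5+ progenitors, over the 13436 kept genes in bins of 0.2, of which bins from -5 to 5 are drawn, with a stem for each of the 8 kept imprinted growth genes (the stem height has no meaning) and dashed lines at 1.5-fold. *Grb10*, at -1.13, and *Mest*, at 0.62, lie outside the dashed lines, and *Plagl1* and *Peg3* lie close to 0.

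*Grb10* encodes an adaptor protein that binds the insulin and IGF1 receptors and restrains their signalling, and lies on chromosome 11 from 11930499 to 12037428 (RefSeq on build GRCm38, as for all positions given here). It had an FPKM of 34.0 in the Lgr5+ cells against 15.0 in the Lgr6+ cells, a change of -1.13 and a ratio of 2.27. It was the largest change among the 10 genes, and 75.8% of the kept genes had a smaller change in either direction. *Grb10* stayed past 1.5-fold lower under all 9 other settings tried, with a change between -1.18 and -0.88. Several of these settings alter only the filter or the fold line, which leaves its value at -1.13, and all of them rework the same pair of values. In most tissues the gene is transcribed from the maternal copy at an upstream promoter, whereas neurons use the paternal copy from promoters further downstream. The table merges these transcripts into 1 value, so the promoters are not separated. RefSeq gives 2 start windows for *Grb10*, each reaching from 250 bases before to 50 bases after the start. They are shown because they differ in content of CpG, the dinucleotide at which DNA methylation is placed. Methylation was not measured, and which window serves which parental copy, or carries an imprinting mark, was not tested. The upstream window, on the minus strand at chr11:12037371-12037670, holds 45 CpG dinucleotides, more than 98.1% of all promoter windows, and the downstream window, at chr11:12027922-12028221, holds 9. CpG dinucleotides are in capitals.
Grb10 upstream: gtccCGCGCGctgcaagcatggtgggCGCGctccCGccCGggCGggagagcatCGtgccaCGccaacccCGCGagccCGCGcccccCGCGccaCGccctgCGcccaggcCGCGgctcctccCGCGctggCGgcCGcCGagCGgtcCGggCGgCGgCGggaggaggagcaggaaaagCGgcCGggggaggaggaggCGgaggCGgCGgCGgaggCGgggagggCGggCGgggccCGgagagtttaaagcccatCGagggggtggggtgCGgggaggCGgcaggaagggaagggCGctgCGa
Grb10 downstream: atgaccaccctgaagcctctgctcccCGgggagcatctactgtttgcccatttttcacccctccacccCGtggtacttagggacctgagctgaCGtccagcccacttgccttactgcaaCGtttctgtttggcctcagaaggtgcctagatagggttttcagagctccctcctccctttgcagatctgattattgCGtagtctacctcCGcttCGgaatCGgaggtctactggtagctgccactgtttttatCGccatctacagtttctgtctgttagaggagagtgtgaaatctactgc

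Other genes of the insulin and IGF receptor pathway that *Grb10* acts on were examined. Of 12 listed genes 11 were kept, 3 were at least 1.5-fold lower and 2 higher in the Lgr6+ cells, and the median change was -0.24. That share of 45.5% was near the 51.8% of all kept genes. *Igf1r*, the IGF1 receptor, had an FPKM of 28.3 in Lgr5+ and 19.8 in the Lgr6+ cells, and *Insr*, the insulin receptor, had 7.66 and 6.32, both within 1.5-fold. The lower genes were *Irs2*, a docking protein of these receptors, with 17.3 and 3.96, *Sh2b1*, an adaptor that enhances receptor signalling, with 27.1 and 12.7, and *Grb14*, the closest relative of *Grb10*, with 127.6 and 70.8. *Grb14* thus stood above *Grb10* in FPKM in both populations. The higher genes were *Sh2b2*, from 0.425 to 2.04, and the ubiquitin ligase gene *Nedd4l*, from 3.93 to 12.2. *Nedd4*, the ligase known to partner Grb10, had 179.5 and 165.6.

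*H19*, a long noncoding RNA (chromosome 7, 142575530 to 142578146), reached an FPKM of 52.8 in the Lgr5+ cells against 63.5 in the Lgr6+ cells, a change of 0.26. Its neighbour *Igf2*, the fetal growth factor that is expressed from the opposite parental copy and shares enhancers with *H19*, had 54.0 and 61.7, a change of 0.19. The FPKM of *H19* was 0.978 times that of *Igf2* in the Lgr5+ cells against 1.03 times in the Lgr6+ cells. *Cdkn1c*, a cyclin-dependent kinase inhibitor of the adjoining cluster, had 172.7 and 212.9, a change of 0.30. Each of these genes was slightly higher in the Lgr6+ cells, within 1.5-fold. After scaling to the same sum of FPKM the change of *H19* was 0.52, still within 1.5-fold.

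Of the 16 listed neighbours of *H19* 12 were kept, and 4 were at least 1.5-fold higher and 1 lower in the Lgr6+ cells, or 41.7% against 51.8% of all kept genes. *Slc22a18*, a membrane transporter gene, had 31.9 and 6.32, a change of -2.17. *Phlda2*, a growth restraining gene best known in placenta, had 0.233 and 2.15, and *Kcnq1ot1*, the noncoding RNA of the cluster, had 5.10 and 10.3. *Kcnq1*, a potassium channel gene, was listed at 0 in Lgr5+ and at 4.83 in the Lgr6+ cells. *Lsp1*, a gene of white blood cells, was likewise listed at 0 and at 3.90. The 8 kept macrophage markers were higher in the same population, and their part in this value was not tested. The neighbours within 1.5-fold included *Mrpl23*, with 341.7 and 299.4, *Cd81*, with 90.0 and 121.7, *Nap1l4*, with 54.6 and 56.1, *Tssc4*, with 48.2 and 50.5, and *Osbpl5*, with 4.37 and 4.05. *Ins2*, *Th* and *Tnni2* were listed at 0 in both populations, and *Ascl2* was listed at 0 and 0.871.

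*Meg3*, a long noncoding RNA (chromosome 12, 109540996 to 109571729), reached an FPKM of 18.0 in the Lgr5+ cells against 13.5 in the Lgr6+ cells, a change of -0.39. *Rian*, a noncoding RNA downstream of *Meg3* that is the host of small nucleolar RNAs and microRNAs, had 0.0612 in the Lgr5+ cells and was listed at 0 in the Lgr6+ cells. *Dlk1*, a transmembrane protein with EGF repeats that keeps precursor cells undifferentiated, had 0.0674 and 0.0827. *Rtl1* and *Mirg*, which lie in the same cluster, were listed at 0 in both populations, and *Dio3*, a thyroid hormone deiodinase gene, was listed at 0 and 0.408. The flanking genes were kept, with *Begain* at 8.28 and 7.58, *Ppp2r5c* at 23.1 and 18.2 and *Wdr25*, the only one past 1.5-fold, at 5.87 and 1.48.

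The number of fragments behind the values of *Dlk1* and *Rian* was estimated from steps in the low FPKM values. Low values of genes with 1 annotated transcript, taken as FPKM times transcript length in kilobases, clustered at 0.128 in the Lgr5+ cells, where 85 values lay against 6 beside it, and at 0.0403 in the Lgr6+ cells, where 29 lay against 5. If such a step is 1 fragment, the value of *Rian* in the Lgr5+ cells was at most 2.40 fragments, counted on its longest transcript, and the values of *Dlk1* were at most 2.34 and 9.14 fragments. These counts cannot separate the populations. By the same count *Ndn*, which has 1 transcript, rested on 182.9 and 866.3 fragments. The finer step in the Lgr6+ cells, by a factor of 3.19, means that low genes were measured more finely there. It is not known how the combined value weighs the libraries.

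The start windows of *Meg3*, *Rian* and *Dlk1* are shown because these neighbours on the plus strand of chromosome 12 had unlike levels. Whether the windows bear on those levels was not tested. The first *Meg3* window, at chr12:109540746-109541045, holds 13 CpG dinucleotides and the second, not shown, holds 1, the *Rian* window, at chr12:109603695-109603994, holds 0, and the *Dlk1* window, at chr12:109452573-109452872, holds 9. CpG dinucleotides are again in capitals.
Meg3: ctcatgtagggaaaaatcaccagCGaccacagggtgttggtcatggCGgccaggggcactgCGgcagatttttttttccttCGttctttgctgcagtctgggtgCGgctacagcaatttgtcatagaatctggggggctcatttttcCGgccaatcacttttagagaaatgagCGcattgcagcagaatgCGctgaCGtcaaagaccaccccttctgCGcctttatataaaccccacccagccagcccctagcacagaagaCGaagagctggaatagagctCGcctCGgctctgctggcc
Rian: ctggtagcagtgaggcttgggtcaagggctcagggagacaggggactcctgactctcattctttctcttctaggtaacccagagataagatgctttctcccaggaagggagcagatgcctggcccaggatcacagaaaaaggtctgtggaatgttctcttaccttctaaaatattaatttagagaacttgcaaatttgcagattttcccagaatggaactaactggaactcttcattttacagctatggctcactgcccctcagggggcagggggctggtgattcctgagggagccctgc
Dlk1: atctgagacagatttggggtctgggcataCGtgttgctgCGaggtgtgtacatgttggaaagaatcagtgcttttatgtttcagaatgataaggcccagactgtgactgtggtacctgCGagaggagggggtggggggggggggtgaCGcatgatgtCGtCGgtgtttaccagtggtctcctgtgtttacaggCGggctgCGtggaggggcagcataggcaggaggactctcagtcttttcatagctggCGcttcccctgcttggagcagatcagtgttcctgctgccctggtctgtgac

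MicroRNAs made from these RNAs gave no reading. The 14 listed rows, among them *Mir675* inside *H19*, *Mir335* inside *Mest*, *Mir770* inside *Meg3* and *Mir370* inside *Rian*, were listed at 0 in both populations. Among all 1101 microRNA rows, 98.6% were at 0 in both, so these rows do not show whether the microRNAs were present. The small nucleolar RNA rows that share the *Rian* interval were at 0 as well.

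*Dlk1* is a relative of the Notch ligands, and *Dlk2* is its close homologue. While *Dlk1* stayed under 0.1, *Dlk2* had an FPKM of 158.3 in the Lgr5+ cells against 254.7 in the Lgr6+ cells, a change of 0.68. Of 8 listed Notch receptors, ligands and *Dlk2*, 7 were kept, 3 were at least 1.5-fold higher and 2 lower in the Lgr6+ cells, while over all kept genes 28.5% were higher and 23.3% lower. *Notch1*, a receptor, had 42.1 and 19.8 and *Jag1*, a ligand of supporting cells, had 107.5 and 59.2. The ligands *Jag2*, with 9.21 and 32.7, and *Dll1*, with 7.80 and 17.9, are known from nascent hair cells and were at least 1.5-fold higher in the Lgr6+ cells. Of the 12 hair cell markers 9 were higher and 3 within 1.5-fold, and their part in these values was not tested.

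*Nnat*, or neuronatin, a small membrane protein of the endoplasmic reticulum that takes part in calcium handling, had the highest level of the 10 genes. Its FPKM was 319.6 in the Lgr5+ cells against 374.9 in the Lgr6+ cells, a change of 0.23, which ranked it 381 and 281 among the 23997 genes. *Nnat* lies on chromosome 2 from 157560078 to 157562525, inside an intron of *Blcap*, and the table gives both genes the same interval. *Blcap* had 45.3 and 30.5, a change of -0.55, so the values of this pair differed in opposite directions, each within 1.5-fold. The counting is not stated to use strand, and reads from bases that transcripts of both genes share then cannot be told apart. Of the SERCA calcium pumps and their small membrane inhibitors, 5 genes that act where neuronatin does, 3 were kept. *Atp2a2* had 20.8 and 39.5 and *Atp2a3* had 3.61 and 9.61, both past 1.5-fold, while *Pln*, the pump inhibitor phospholamban, had 3.45 and 4.97, within 1.5-fold. Among all kept genes 51.8% were past that line, and 28.5% of all kept genes were past it and higher in the Lgr6+ cells.

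*Ndn*, or necdin, a protein of the MAGE family that restrains cell division and is abundant in neurons, had an FPKM of 16.2 in the Lgr5+ cells against 24.0 in the Lgr6+ cells. The change of 0.54 was just short of the 1.5-fold line, at 0.58. It passed that line under 1 of 9 other settings, scaling to the same sum, where it was 0.80 and the median of all kept genes was 0.27. The gene lies on chromosome 7 from 62348277 to 62349928 and overlaps no other row of the table. Of the 7 neuronal markers 2 were at least 1.5-fold higher and 1 was lower in the Lgr6+ cells. The shares over all kept genes were 28.5% and 23.3%. *Mkrn3*, a paternally expressed gene close to *Ndn*, had 2.76 and 4.34, and *Magel2* had 0.0580 in Lgr5+ and was listed at 0 in the Lgr6+ cells. *Snrpn*, a splicing factor gene, had 47.2 and 46.6, and *Ube3a*, a ubiquitin ligase gene, had 20.5 and 14.9. *Snurf* had 2.34 and 2.24, *Peg12* had 1.76 and 1.40, and *Atp10a* had 0.123 and was listed at 0.

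Relatives and partners of necdin were also examined. *Maged1* had an FPKM of 238.5 and 173.2 and *Maged2* 128.3 and 82.4, the latter 1.5-fold lower in the Lgr6+ cells at a change of -0.63. Of 9 listed genes 7 were kept, 1 higher and 2 lower, or 42.9% against 51.8% of all kept genes. *Trp53*, whose product p53 binds necdin, had 26.9 and 13.2, and *E2f1*, a cell cycle factor that necdin restrains, had 0.318 and 1.62. Over the 8 proliferation markers the summed FPKM was 52.1 and 94.7, with 4 of 7 kept at least 1.5-fold higher in the Lgr6+ cells and none at 0. The share of all kept genes that were higher was 28.5%.

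*Mest*, which encodes an enzyme-like protein of the alpha/beta hydrolase fold and is known from mesoderm, had an FPKM of 3.41 in the Lgr5+ cells against 5.78 in the Lgr6+ cells, a change of 0.62. It was just past the 1.5-fold line and fell short of it after quantile normalization, with 0.42. The gene lies on chromosome 6 from 30733506 to 30748466, and the table gives it the same interval as *Copg2*, a coat protein gene that overlaps its end. *Copg2* had 17.7 and 12.9, a change of -0.43. *Cep41*, a centrosome gene nearby, had 38.3 and 43.1, and *Klf14* was listed at 0 in both populations. The part of mesenchyme, whose markers went in both directions, in the value of *Mest* was not tested.

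*Plagl1* had an FPKM of 1.61 in both populations, a change of 0.00, and *Peg3*, a zinc finger protein of growth and maternal behaviour, had 1.56 and 1.47, a change of -0.05. After quantile normalization the changes were -0.35 and -0.42, and after scaling to the same sum they turned to 0.16 and 0.11, all within 1.5-fold. *Plagl1* lies on chromosome 10 from 13090832 to 13131694 and *Peg3* on chromosome 7 from 6703892 to 6730462. The relatives of *Plagl1* were also low, *Plagl2* with 3.54 and 5.61 and *Plag1* with 0.305 and 1.11, the latter at least 1.5-fold higher in the Lgr6+ cells. In the *Peg3* cluster *Usp29* had 0.178 and 0.0132 and *Zim1* was listed at 0 in both populations. The antisense RNA *Peg3os*, on chromosome 7 from 6706760 to 6707624 and inside *Peg3*, had 37.1 in the Lgr5+ cells against 2.66 in the Lgr6+ cells, a change of -3.38. A lower change was seen in 0.164% of the kept genes. *Peg3os* shares the interval of *Peg3* in the table and was chosen after its value was seen. Reads from bases that transcripts of both antisense partners share cannot be told apart without strand. The genes beside *Plagl1* were *Phactr2*, with 3.76 and 3.81, *Sf3b5*, with 469.5 and 295.5, and *Ltv1*, with 35.5 and 15.2.

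**Figure D3:**
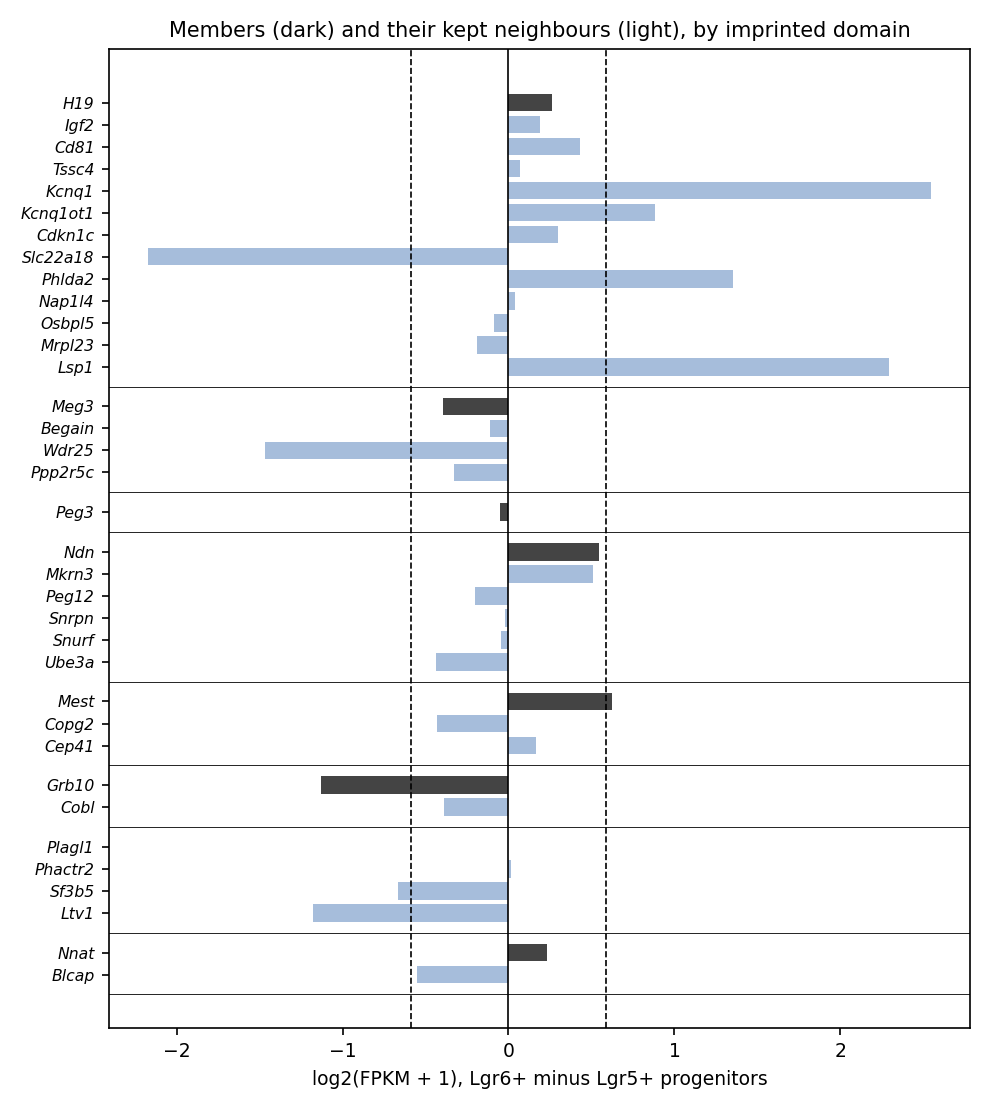
Change in log2(FPKM + 1), Lgr6+ minus Lgr5+ progenitors, of the kept imprinted growth genes (dark bars) and the kept neighbours named in the text (light bars), grouped by cluster, with dashed lines at 1.5-fold. *H19* and *Igf2* sit side by side at 0.26 and 0.19, whereas *Nnat* and *Blcap*, and *Mest* and *Copg2*, point in opposite directions.

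Over all clusters 28 of the 42 neighbours in the table were kept, and 5 were at least 1.5-fold higher and 4 lower in the Lgr6+ cells, which is 32.1% against the 51.8% of all kept genes. In the *Grb10* cluster *Cobl*, an actin nucleator gene, had 36.5 and 27.6, *Ddc* had 0.823 and 0.393, and *Fignl1* was listed at 0 and 0.122.

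Among a wider list of other imprinted genes, many of them imprinted only in placenta or brain, 40 of the 61 found were kept. Of these, 10 were at least 1.5-fold higher and 4 lower in the Lgr6+ cells, or 35.0% against 51.8% of all kept genes. Their median change was 0.09. The maternally expressed genes, 21 kept, had 5 higher and 4 lower with a median of -0.14, and the paternally expressed genes, 19 kept, had 5 higher and 0 lower with a median of 0.25. Past 1.5-fold were thus 42.9% of the maternally and 26.3% of the paternally expressed genes. Among all kept genes 28.5% were higher and 23.3% lower. The 5 widest differences in favour of the Lgr6+ cells were those of *Kcnq1*, *Htr2a*, a serotonin receptor gene, from 0.277 to 3.53, *Mcts2*, from 11.0 to 40.8, *Nap1l5*, from 1.44 to 6.98, and *Phlda2*. The 4 lower genes were *Slc22a18*, *Pon3*, with 2.64 in the Lgr5+ cells and listed at 0 in the Lgr6+ cells, *Slc22a3*, with 15.1 and 8.95, and *Pon2*, with 12.0 and 7.59.

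In the co-regulated growth network, 17 genes were listed, of which 9 belong to the genes described above. Of the 8 others 7 were kept and 1, or 14.3% against 51.8% of all kept genes, was past 1.5-fold on log2(FPKM + 1). It was *Gatm*, an enzyme of creatine synthesis, with 2.98 and 13.9. *Gnas*, the stimulatory G protein alpha subunit, had 930.6 and 846.3 and *Igf2r*, the receptor that clears IGF2, had 10.3 and 6.59. *Dcn*, a matrix proteoglycan that is also a mesenchyme marker, had 91.8 and 74.9, and *Sgce* had 20.5 and 13.5. As plain ratios of FPKM, without the added 1, *Igf2r* was 1.57-fold and *Sgce* 1.52-fold lower in the Lgr6+ cells, both past the line. *Slc38a4*, an amino acid transporter gene, had 0.0415 and 0.690 and did not pass the filter.

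Promoter windows of RefSeq on build GRCm38.p6 were found for 9 of the 10 growth genes, 13 windows in all, and not for *H19*. With at least 50% of G and C bases and an observed to expected CpG ratio of at least 0.6, 6 windows of 6 genes were CpG rich, *Grb10*, *Plagl1*, *Nnat*, *Ndn*, *Mest* and *Meg3*. Of all 32851 windows 33.5% were CpG rich. The 6 genes with such a window were all kept, and the windows of *Rian* and *Dlk1*, which were not kept, were not CpG rich. *Peg3* was kept without such a window. Ratios close to the cut-off were those of *Meg3*, at 0.602, *Ndn*, at 0.623, and *Mest*, at 0.605, where an overlapping window at 0.590 fell short. Whether CpG content bears on the level of these genes was not tested. The letters GGGGCCCC, known as a binding motif of Plagl1 and the same on both strands, were found in the window of *Peg3* and in 1.08% of all windows.

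**Figure D4:**
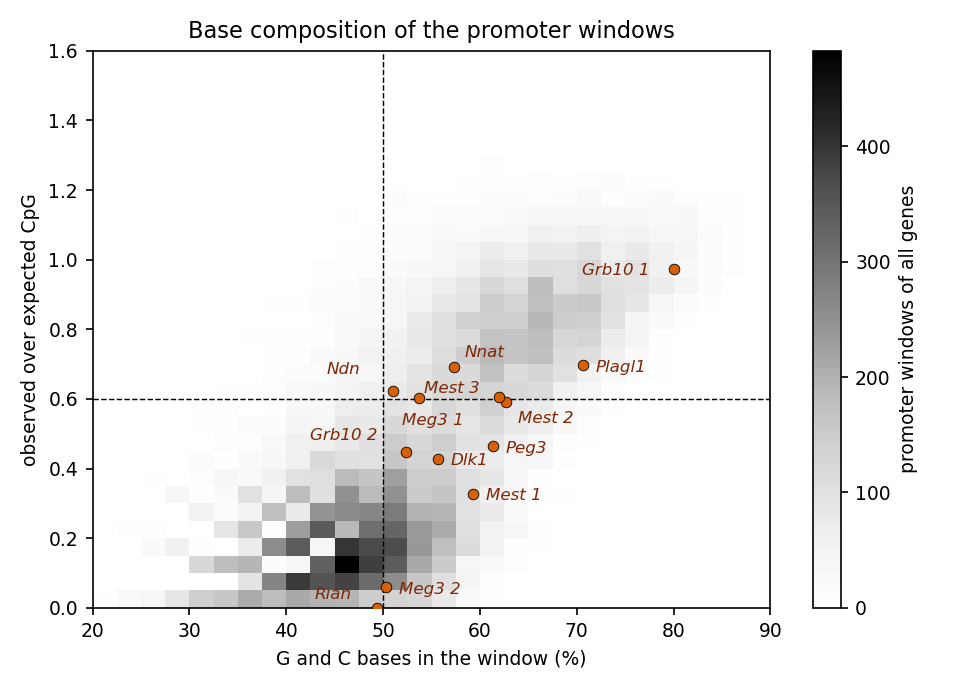
Percent of G and C bases (x axis) against observed over expected CpG (y axis) in windows of 300 bases at gene starts, with the 13 windows of the imprinted growth genes as orange points, numbered where a gene has several, over the density of all 32851 windows in grey. The upstream *Grb10* window lies at 80.0% and 0.973, and the *Rian* window has no CpG.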

How the data were processed

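The measurement was RNA-Seq of FACS-isolated Lgr5+ and Lgr6+ progenitors. In the table of the authors, each deposited FPKM is a combined value of a population. The libraries were made with the SMART-Seq v4 kit, trimmed with Trimmomatic, mapped with TopHat and quantified with Cufflinks, and the versions are not given in the sources used here. The paper names mm9 and the submitters' processing notes name mm10. Of 19493 gene symbols, 99.1% of the table's intervals overlapped the RefSeq gene in GRCm38 and 12.7% overlapped the gene in NCBIM37, so positions are those of RefSeq on GRCm38.p6. The table also holds the authors' fold changes, *p*-values and *q*-values, which were not used.

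Groups followed the sample titles. Genes that reached an FPKM of 1 in either population were kept, and the change was calculated with a pseudocount of 1 and read against 1.5-fold. Each gene has 1 value per population, so no test was made in place of the limma fit that single samples would have allowed. The depth of the libraries is not stated in the table. The steps of low FPKM values came from 6908 genes with 1 annotated transcript, using its length less 200 bases. Named genes were the 10 members, the genes beside them in their clusters, the largest changes among the other imprinted genes, and the genes past 1.5-fold in lists of related pathways. Not every listed gene is reported singly here. Further genes were named as context after their values were seen. No genes of most similar pattern were sought, since 2 values fix no pattern. The members and lists were chosen with earlier results of these data known. The alternatives were another pseudocount, another filter, another scaling and a 2-fold line, and a filter that asks for an FPKM of 1 in both populations was chosen after seeing the data. Python 3.11.15, numpy, pandas and matplotlib were used, and the calculation was tested on simulated data.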

Additional observations from a re-analysis of the deposited data

How the results depend on the processing

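No paired analysis was possible because the table holds 1 combined value per population, and for the same reason leaving out each replicate, a limma fit and the replicate block were not run. Under the 9 alternatives none of the values turned its direction past 1.5-fold, and *Grb10* was lower throughout, between -1.18 and -0.88. Another filter or another fold line leaves the value of a single gene as it was, so these settings are no check on *Grb10* or *Mest*. *Mest* stayed higher in 7 of 9, and lost the 1.5-fold line after quantile normalization (0.42) and the 2-fold line. The median change of the kept growth genes, 0.11, was 0.010 without a filter, 0.25 at a minimum FPKM of 5, -0.0044 after quantile normalization and 0.33 after scaling to the same sum. The maternally expressed genes had -0.24 without a filter and -0.14 at the same sum, and the paternally expressed genes had 0.13, 0.54, 0.42 and 0.49 without a filter, at a minimum of 5, after quantile normalization and at the same sum. After quantile normalization 0 growth genes were higher in Lgr6+ progenitors, against 2 at the same sum and 0 at 2-fold. Of the other imprinted genes, 2 were lower at the same sum with a median of 0.35, and 6 were higher and 2 lower at 2-fold. Scaling to the same sum moved the median of all kept genes from 0.03 to 0.27 and the calls from 3826 higher and 3136 lower to 4958 and 2186, and relative to that median *Grb10* was at -1.15, *Mest* at 0.57 and *Ndn* at 0.53. At a pseudocount of 0.1 *Rian* had -0.69. The cause was not tested. If a step of the low values is 1 fragment, *Rian* and *Dlk1* rest on few fragments, which cannot separate the populations.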

Other observations

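Genes that maintain imprints were listed as well. Of 15 listed genes 13 were kept, 2 passed 1.5-fold toward Lgr6+ progenitors and 0 toward Lgr5+ progenitors, or 15.4% against 51.8% of all kept genes, with a median change of 0.12. As a plain ratio of FPKM, without the added 1, *Uhrf1*, with 3.55 and 2.29, was 1.55-fold lower in Lgr6+ progenitors. *Dnmt3b*, a DNA methyltransferase, had an FPKM of 0.999 and 3.19, a change of 1.07, and *Tet3*, an enzyme that oxidises methylated cytosine, had 13.1 and 20.5. *Zfp57*, which binds methylated imprinting control regions, had 1.79 and 2.22, and its partner *Trim28* had 70.1 and 85.5. *Dnmt3l* and *Dppa3*, genes of germ cells and early embryos, were listed at 0 in both populations.

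The antisense noncoding RNA *Airn* had 22.5 in Lgr5+ and 38.6 in Lgr6+ progenitors, a change of 0.75, and its overlapping partner *Igf2r* had 10.3 and 6.59, a change of -0.58. The FPKM of *Airn* was 2.18 times that of *Igf2r* in Lgr5+ progenitors and 5.86 times in Lgr6+ progenitors. The table gives this pair the same interval, and without strand reads from bases that transcripts of both share cannot be told apart.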
